A study of Mus musculus with 9 samples.

Results

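Late glomerulonephritis (GN) was compared with early GN in glomeruli of 1 mouse strain, B6.MRLc1, with 3 arrays of mice at 14 months of age set against 3 arrays of mice at 9 months. These are 6 of the 9 arrays of the series. The other 3 arrays are from C57BL/6 mice at 9 months and entered an alternative fit only. All GN mice were untreated females of a C57BL/6 congenic strain that carries the telomeric part of chromosome 1 of MRL/MpJ, so early and late GN share this segment and differ in age by 5 months, and disease stage and age cannot be told apart. Glomeruli were isolated by bead perfusion, and total RNA was read on a 3D-Gene mouse miRNA chip with 1 dye. The chip held 1096 mouse miRNA probes, and the 403 that had a listed value on all 6 arrays were compared, which is 36.8% of them. The strain label of the early GN samples reads C57BL/6 and the design text of the series exchanges the ages, so the stages were taken from the sample titles. The study's methods give 3 mice for each stage, and each array was taken as 1 mouse.

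A miRNA is a short RNA that guides a silencing complex to messenger RNAs, chiefly through the bases of its seed near the 5′ end. The glomerulus filters plasma through a wall of endothelial cells, a basement membrane and podocytes, with mesangial cells between the capillaries, and each of these cell types carries its own abundant miRNAs. The miR-30 family is known for its high level in podocytes, miR-126 for endothelium, miR-143 and miR-145 for smooth muscle and mesangium, and miR-223 and miR-142 for leukocytes, which enter the kidney in immune-mediated GN. In RNA from whole glomeruli, fewer cells of a type and less of a miRNA per cell cannot be told apart.

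The mature sequences below belong to the miRNAs on which the comparison turns: those with the smallest p on the lower side and on the higher side, and members of the miR-30 and let-7 families. Capitals mark the seed, bases 2 to 8 from the 5′ end. The sequences and positions are those of RefSeq on GRCm38.p6.
miR-376a: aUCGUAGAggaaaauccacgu
miR-3968: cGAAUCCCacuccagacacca
miR-130a: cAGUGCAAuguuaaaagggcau
miR-30a: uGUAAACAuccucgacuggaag
miR-30c: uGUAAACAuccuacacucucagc
miR-30e: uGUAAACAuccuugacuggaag
let-7b: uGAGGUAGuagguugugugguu
let-7c: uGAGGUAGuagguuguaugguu
let-7e: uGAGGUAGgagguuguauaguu
miR-1224*: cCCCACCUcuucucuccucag
miR-31: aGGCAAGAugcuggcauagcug
miR-692: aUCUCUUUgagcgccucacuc
miR-3472: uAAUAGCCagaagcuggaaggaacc
miR-223: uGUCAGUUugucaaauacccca

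The printed miR-30 members share the seed GUAAACA and the printed let-7 members share GAGGUAG, while the other 8 sequences each have a seed of their own. Members of a family differ from each other by few bases, and binding of a family member to the probe of another was not measured. miR-376a lies at chr12:109723824-109723844 on the plus strand, in the imprinted miRNA cluster of that chromosome, and miR-3968 at chr11:115447969-115447989 on the minus strand. miR-31 lies at chr4:88910614-88910635 on the minus strand, miR-1224* at chr16:20604516-20604536 on the plus strand and miR-223 at chrX:96242884-96242905 on the plus strand.

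The early GN arrays did not form a uniform group. Early GN arrays 1 and 2 listed 415 and 485 mouse probes, whereas early GN array 3 listed 717 and the late GN arrays listed 672 to 731. The authors' global normalization sets the median of each array's own listed values to 25, and an array that lists only bright probes is thereby scaled down. Over the same 403 probes, the median global normalized value was 27.8, 35 and 72.5 on early GN arrays 1 to 3 and 68.5, 68.6 and 65.0 on late GN arrays 1 to 3. In these deposited values, early GN array 3 sat with the late GN arrays, as the plot of probes and values by array shows. Early GN arrays 1 and 2 sat about 1 log2 unit below them. The factor from scanner signal to deposited value was 1.098, 1.248 and 2.355 on early GN arrays 1 to 3. On late GN arrays 1 to 3 it was 1.884, 1.786 and 1.309. For scanner signal without scaling, the median late minus early log2 difference was 0.52, with 356 of 403 above 0. With scaling to the spike controls it was 0.52, with 355 above 0. Pearson's r of log2 values across the 403 probes was 0.973 to 0.979 within early GN, 0.987 to 0.992 within late GN and 0.967 to 0.985 between the stages; these are correlations across probes, which are not independent replicates. No slide held arrays of both stages. The comparison is therefore given with the deposited scaling and after aligning the arrays on the median of the 403 probes (the common median), and a log2 value "from the array median" below is on the latter scale.

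**Figure D1:**
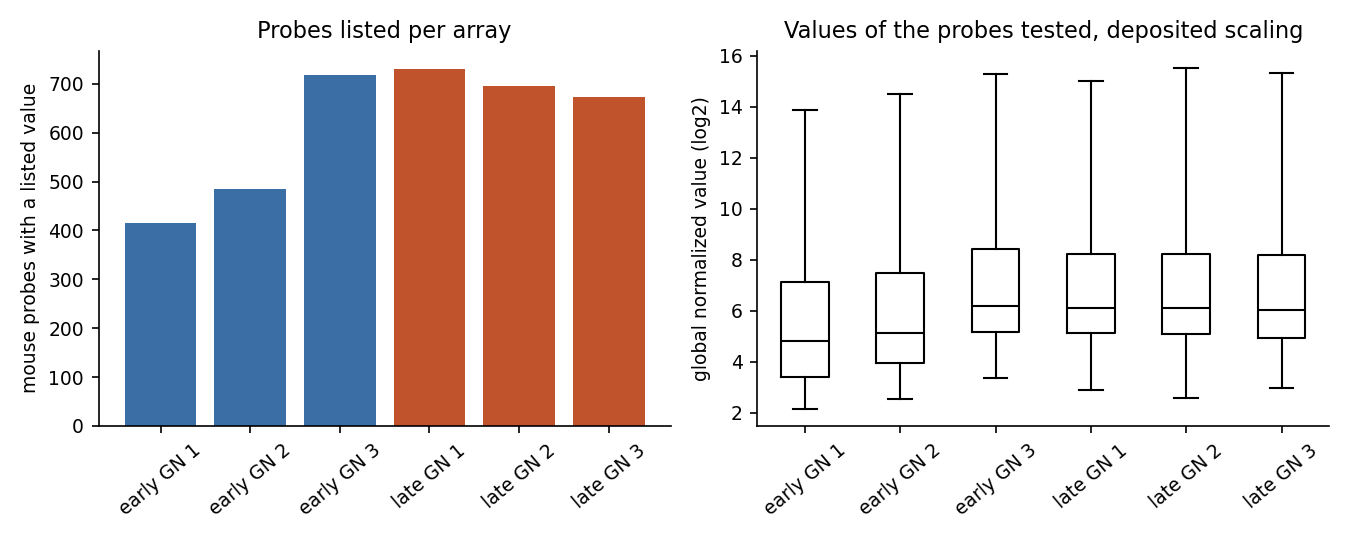
Left: mouse probes with a listed value on each of the 6 arrays (bars; blue, early GN; orange, late GN). Right: log2 of the deposited global normalized values of the 403 probes tested on each array (box, quartiles with the median; whiskers, lowest and highest). Early GN arrays 1 and 2 list fewer probes (415 and 485) and have lower medians (log2 4.8 and 5.13) than the other 4 arrays (log2 6.02 to 6.18).

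With the deposited scaling, no miRNA passed an adjusted p of 0.05 in either direction (limma, 2-sided, Benjamini-Hochberg over 403 probes). At an unadjusted p under 0.05, 75 of the 403 (18.6%) were higher in late GN and 1 was lower (0.248%). The values of all late GN arrays lay above those of all early GN arrays for 84 miRNAs (20.8%) and below them for 0 (0.0%). The median log2 difference over all probes was 0.69, and 391 of 403 differences were above 0.

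With the common median, 0 miRNAs were higher (0.0%) and 1 was lower (0.248%) at an adjusted p under 0.05. At an unadjusted p under 0.05, 21 were higher (5.21%) and 52 lower (12.9%). All late GN arrays lay above all early GN arrays for 30 miRNAs (7.44%) and below them for 72 (17.9%). The sign of the difference was opposite in the 2 scalings for 193 of the 403 miRNAs. For 20 miRNAs all late GN arrays lay above all early GN arrays in both scalings, and none lay below in both. The spread of log2 values over the 403 probes was narrower in late GN (SD 2.51 to 2.57) than in early GN (SD 2.64 to 2.79). The difference also varied with the brightness of the probe. When the probes were split by mean signal into 5 groups of 80 or 81, the median log2 difference with the common median, from the dimmest to the brightest group, was 0.14, 0.18, 0.02, -0.14 and -0.28, and the number of miRNAs with all late GN arrays below all early GN arrays was 4, 5, 14, 18 and 31. Across the 403 miRNAs, mean signal and difference had r = -0.39 and rho = -0.42, a description across probes that share arrays.

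**Figure D2:**
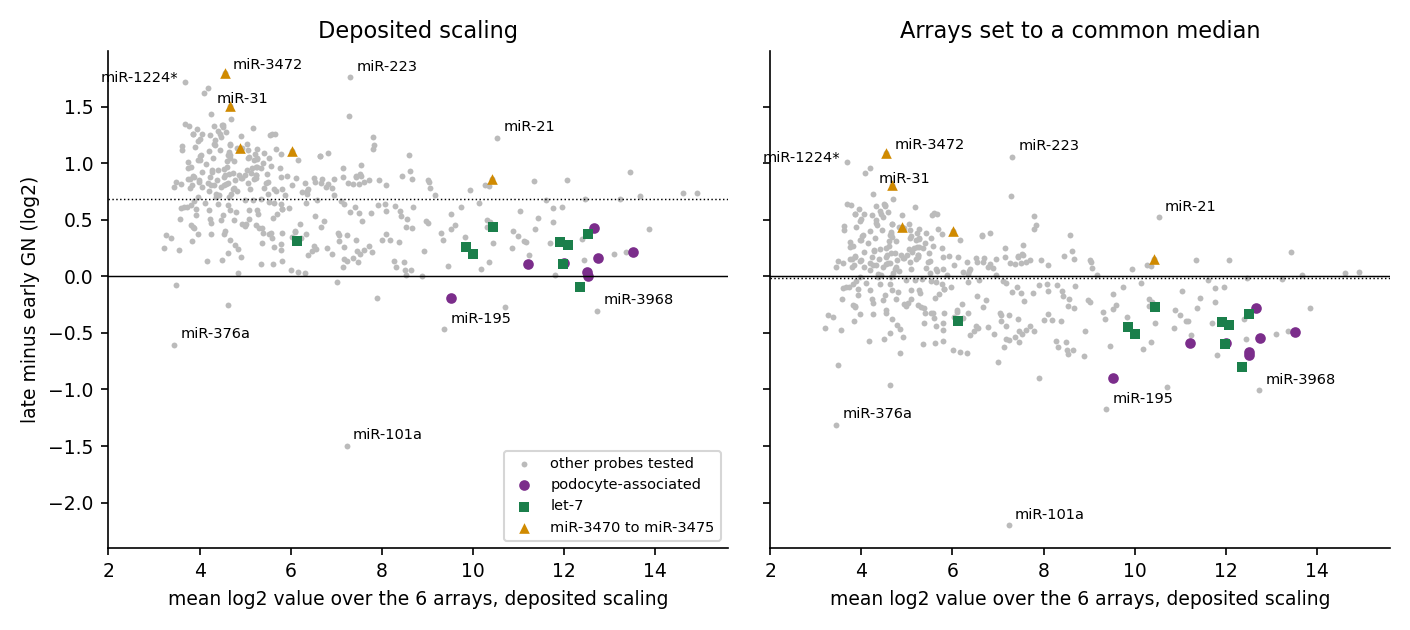
Difference of late minus early GN (log2) of each of the 403 miRNAs against its mean log2 deposited value over the 6 arrays, with the deposited scaling (left) and with arrays set to a common median (right). The dotted line is the median over all probes, 0.69 on the left and -0.02 on the right; podocyte-associated miRNAs and let-7 lie below it in both panels and miR-3470 to miR-3475 above it.

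miR-376a, a miRNA of the imprinted cluster of chromosome 12, was the miRNA that fell in late GN with the common median. Its global normalized values were 8.60, 13.6 and 21.1 in early GN, and in late GN they were 10, 9.07 and 7.73, so the groups overlapped with the deposited scaling. From the array median the log2 values were -1.69, -1.37 and -1.78 in early GN against -2.78, -2.92 and -3.07 in late GN, with no overlap. miR-376a fell by 1.31 on the log2 scale (SE 0.21, adjusted p = 0.0111, limma), and with the deposited scaling the log2 difference was -0.61 (SE 0.52, as for every miRNA in that scaling; adjusted p = 0.428). The probe was dim. Its spot medians were 47, 42 and 41 on the early GN arrays and 35, 38 and 43 on the late GN arrays, against mean blank signals of 30.5 to 36.8, and it exceeded the blank mean by over 2 SD on 2 of 3 early and 1 of 3 late GN arrays. The adjusted p was 0.0530, 0.136 and 0.0699 without early GN array 2, late GN array 2 and late GN array 3, respectively, and 0.179 with a pseudocount of 16. In the 5 scalings made from the scanner signal it was 0.0911 to 0.433, with log2 differences from -1.58 to -0.21. Of the 15 tested members of its cluster list, 4 were above 0 and 11 below with the common median (median -0.25). By position, 6 of the 14 probes from Mir379 to Mir3072, which include miR-376a, were above 0 and 8 below (median -0.11). The other members with the smallest p were miR-379 (log2 difference -0.60), miR-127 (-0.56) and miR-3072 (-0.48), none of which passed the adjusted threshold.

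On the higher side, 3 miRNAs were among the 5 with the smallest p in both scalings: miR-1224*, miR-31 and miR-692, all of them dim probes. miR-1224*, the star strand of a miRNA that is processed from a short intron, had values of 4.43, 6.75 and 11.8 in early GN against 30.3, 18.8 and 21.9 in late GN. Its log2 difference was 1.71 with the deposited scaling (adjusted p = 0.143, limma) and 1.01 (SE 0.23, adjusted p = 0.0866) with the common median. miR-31 had values of 5.22, 8.75 and 23.7 in early GN against 32.8, 33.99 and 30.8 in late GN, with log2 differences of 1.66 and 0.96. All late GN arrays were above all early GN arrays for both miRNAs in both scalings, although the third early GN array came nearest to the late ones for miR-31.

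miR-692 had values of 8.0, 8.08 and 14.2 in early GN against 27.5, 42.3 and 22.8 in late GN, with log2 differences of 1.62 and 0.91 in the deposited and the common median scaling. miR-706 was brighter, at 52.3, 112 and 151 in early GN against 274, 248 and 246 in late GN (log2 differences 1.42 and 0.71). miR-665* had log2 differences of 1.33 and 0.62. The 3 miRNAs likewise showed no overlap between the stages in either scaling. In the 9 scalings tried, miR-1224*, miR-31, miR-692, miR-706 and miR-665* were above 0 in all 9, with lowest log2 differences of 0.06, 0.16, 0.12, 0.60 and 0.04. On the early GN arrays, miR-1224*, miR-31 and miR-692 exceeded the blank mean by over 2 SD on 1 of 3 arrays each, and on the late GN arrays on 2, 3 and 3 of 3.

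**Figure D3:**
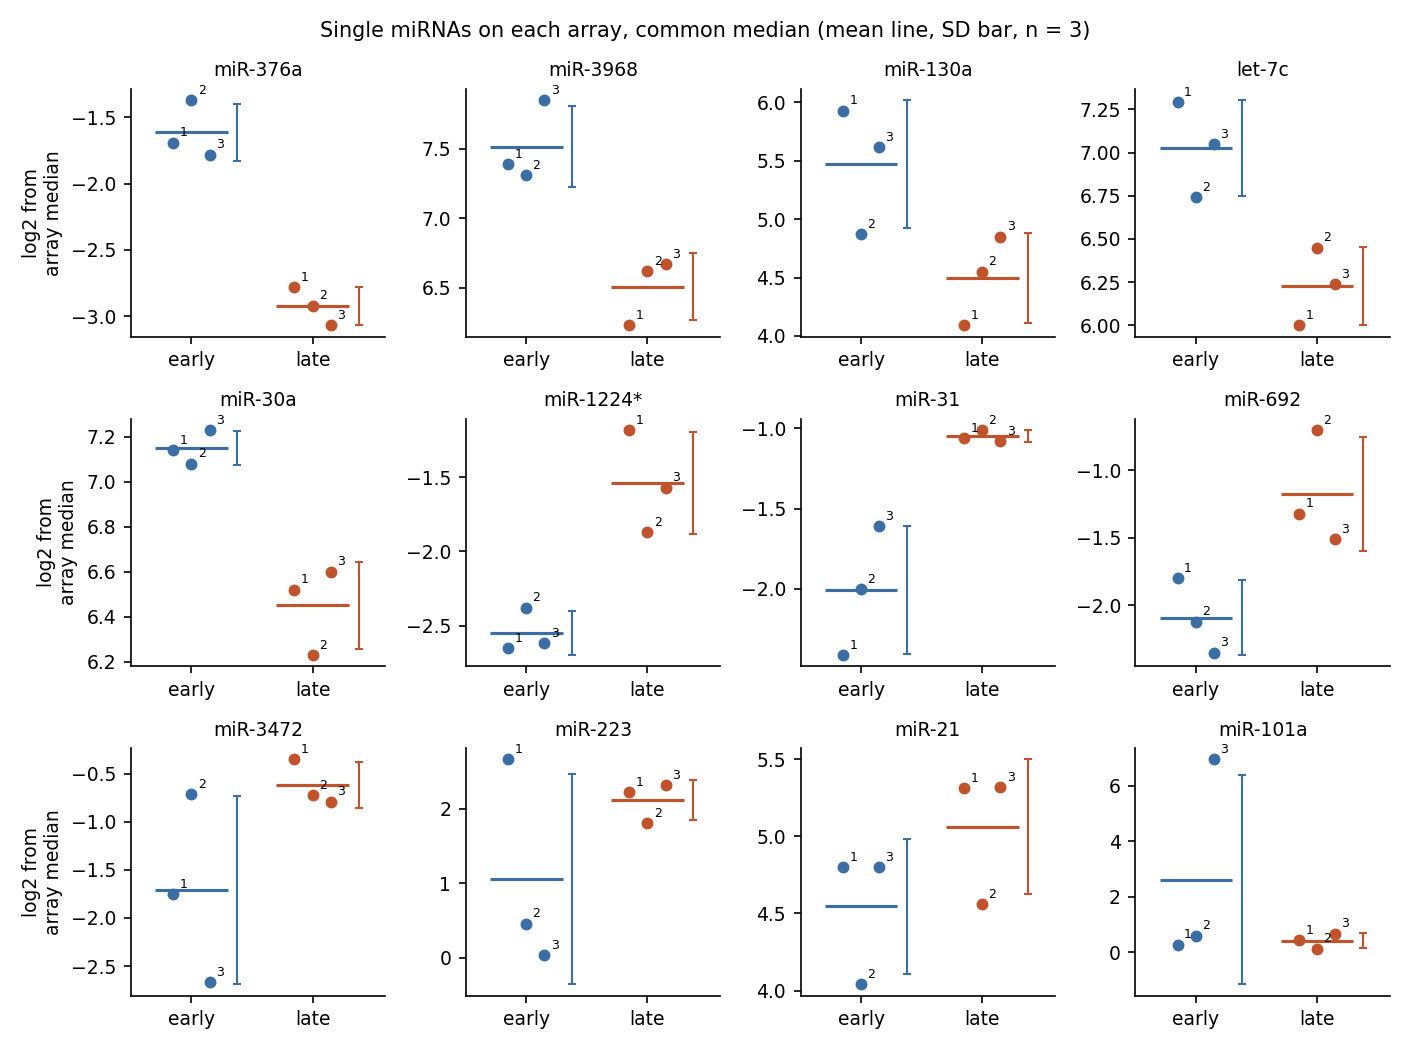
Log2 value from the array median of 12 miRNAs on each array (points, numbered by replicate; blue, early GN; orange, late GN; line, mean; bar, SD; n = 3 per stage; the axis of each panel has its own range). miR-376a to miR-30a lie lower on all late GN arrays, miR-1224*, miR-31 and miR-692 lie higher, and miR-223, miR-3472, miR-21 and miR-101a overlap.

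miR-223, which marks myeloid cells, had the second largest log2 difference with the deposited scaling. Its values were 176, 48.3 and 74.6 in early GN against 319.5, 239.8 and 322.8 in late GN, a log2 difference of 1.76 (adjusted p = 0.143). From the array median, early GN array 1 (2.66) was above all late GN arrays (2.22, 1.81 and 2.31), while early GN arrays 2 and 3 (0.46 and 0.04) were far below them. The log2 difference was then 1.06 (SE 0.49, unadjusted p = 0.0495, adjusted p = 0.271). Without early GN array 1, miR-223 was higher by 2.28 with the deposited scaling (adjusted p = 0.000966) and by 1.86 with the common median (adjusted p = 0.00149). In all 9 scalings its difference was above 0, from 0.65 to 1.76. The other leukocyte miRNAs tested had smaller differences. With the common median, 5 of 7 tested members were above 0 and 2 below (median 0.07, against -0.02 for all probes), and 0 passed the adjusted threshold. Besides miR-223, those above 0 were miR-142-5p (0.56), miR-146a (0.23), miR-142-3p (0.07) and miR-342-3p (0.06). The 2 below 0 were miR-150, abundant in lymphocytes, and miR-146b, induced by inflammatory signals, at -0.33 and -0.36. miR-142-5p, a miRNA of blood cells, had values of 30.2, 8.62 and 118 in early GN against 93.6, 50.3 and 89.4 in late GN, so that the spread within early GN exceeded the difference between the stages. The 7 members summed to 0.111% to 0.360% of the summed values of all 403 probes in early GN and to 0.208% to 0.400% in late GN. miR-155, the remaining member, was listed on 1 of 3 early and 3 of 3 late GN arrays.

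On the lower side, miR-3968 had the smallest p after miR-376a with the common median. Its values were 4655, 5553 and 16733 in early GN against 5139, 6753 and 6632 in late GN, and its log2 values from the array median were 7.39, 7.31 and 7.85 in early GN against 6.23, 6.62 and 6.67 in late GN. The log2 difference was -1.01 (SE 0.23, adjusted p = 0.0866), and -0.30 with the deposited scaling. miR-130a, a miRNA known from vascular cells, had log2 values from the array median of 5.93, 4.87 and 5.62 in early GN against 4.09, 4.55 and 4.85 in late GN (difference -0.98, SE 0.29, adjusted p = 0.186). Both were below 0 in all 9 scalings, miR-3968 from -1.18 to -0.30 and miR-130a from -1.12 to -0.27.

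For 2 miRNAs a single array set the difference. miR-101a had a value of 9039 on early GN array 3, whereas early GN arrays 1 and 2 gave 33.5 and 53.0, and late GN arrays 1 to 3 gave 92.6, 74.96 and 103. Its log2 difference was -1.50 with the deposited scaling and -2.20 with the common median, and without early GN array 3 it was -0.02 with the common median (adjusted p = 0.984). With the deposited scaling it was then 1.09 (adjusted p = 0.00923), next to a median of 1.08 over all 403 probes. miR-195, of the miR-15/16 seed family, had 169.6 on late GN array 2, whereas late GN arrays 1 and 3 gave 1257 and 834 and the early GN arrays 729 to 855.

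Podocyte-associated miRNAs lay lower in late GN with the common median, without passing the test. The 8 members were miR-30a to miR-30e, miR-26a, miR-23b and miR-24, and all were measured. All 8 differences were below 0 (median -0.59, against -0.02 for all probes). For 7 of 8 the values of all late GN arrays were below those of all early GN arrays, against 17.9% of all probes. An unadjusted p under 0.05 was found for 7 of 8, against 12.9% of all probes, and none passed an adjusted p of 0.05. The members are bright probes, and in the brightest of the 5 groups of probes 31 of 81 had all late GN arrays below all early GN arrays with a median of -0.28. In that group 23 of 81 were lower at an unadjusted p under 0.05. The list was chosen with earlier results of these data known.

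Within this group, miR-30a had values of 3925, 4728 and 10871 in early GN against 6270, 5143 and 6316 in late GN. From the array median these were log2 7.14, 7.08 and 7.23 in early GN against 6.52, 6.23 and 6.6 in late GN, a difference of -0.70 (SE 0.21, adjusted p = 0.186, ratio 0.616). The early GN arrays thus lay close together once scaled, with all late GN arrays below them. miR-30c gave 7.07, 7.12 and 7.16 in early GN against 6.41, 6.29 and 6.64 in late GN (difference -0.67, SE 0.20, adjusted p = 0.186). miR-30b gave 5.80, 5.72 and 5.83 against 5.23, 5.0 and 5.33 (difference -0.59, SE 0.20). miR-30d (-0.59), miR-24 (-0.55) and miR-23b (-0.49) showed the same order of the stages, and the largest difference was that of miR-30e (-0.90), whose late GN array 2 stood apart at 2.52 against 3.69 and 3.83. miR-26a was the exception, at 7.40, 7.20 and 6.64 in early GN against 6.78, 6.79 and 6.83 in late GN, with overlapping groups and a difference of -0.28. The star strands of miR-30a and miR-30e, read by separate probes, were at -0.71 and -0.65.

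The direction of this group depended on the scaling. With the deposited scaling its median was 0.11 and 7 of 8 members were above 0, while in the other 8 scalings the median was below 0, from -0.77 to -0.04. It was below the median of all probes in all 9, by 0.19 to 0.58. Most of these scalings shift each array by a constant, which leaves the place of a list relative to all probes nearly unchanged. The gap was -0.19 with normexp and quantile normalization and -0.29 with cyclic loess, the scalings that can change it. The count of 7 members with an unadjusted p under 0.05 became 4 without early GN array 1 or late GN array 1. It was 0 with cyclic loess, which also evens out differences that vary with brightness (median -0.28, 7 of 8 below 0). With the median of the brighter probes it was 3, and with the 75th percentile of detected or all mouse probes 2 or 7. With normexp and quantile normalization, the spike controls or no scaling of the scanner signal it was 0. A quantity that does not depend on the array's scale is the share of the summed values of the 403 probes, which was 15.7%, 13.7% and 15.7% in early GN but 12.6%, 10.9% and 13.5% in late GN. These shares did not overlap, and the exact permutation test of 3 arrays against 3 cannot give a p below 0.1. The share includes miR-23b and miR-24, with mean values of 12335 and 7047 in early GN, which are outside the miR-30 family. A narrower podocyte set of miR-26a and miR-30a to miR-30e was not summed.

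**Figure D4:**
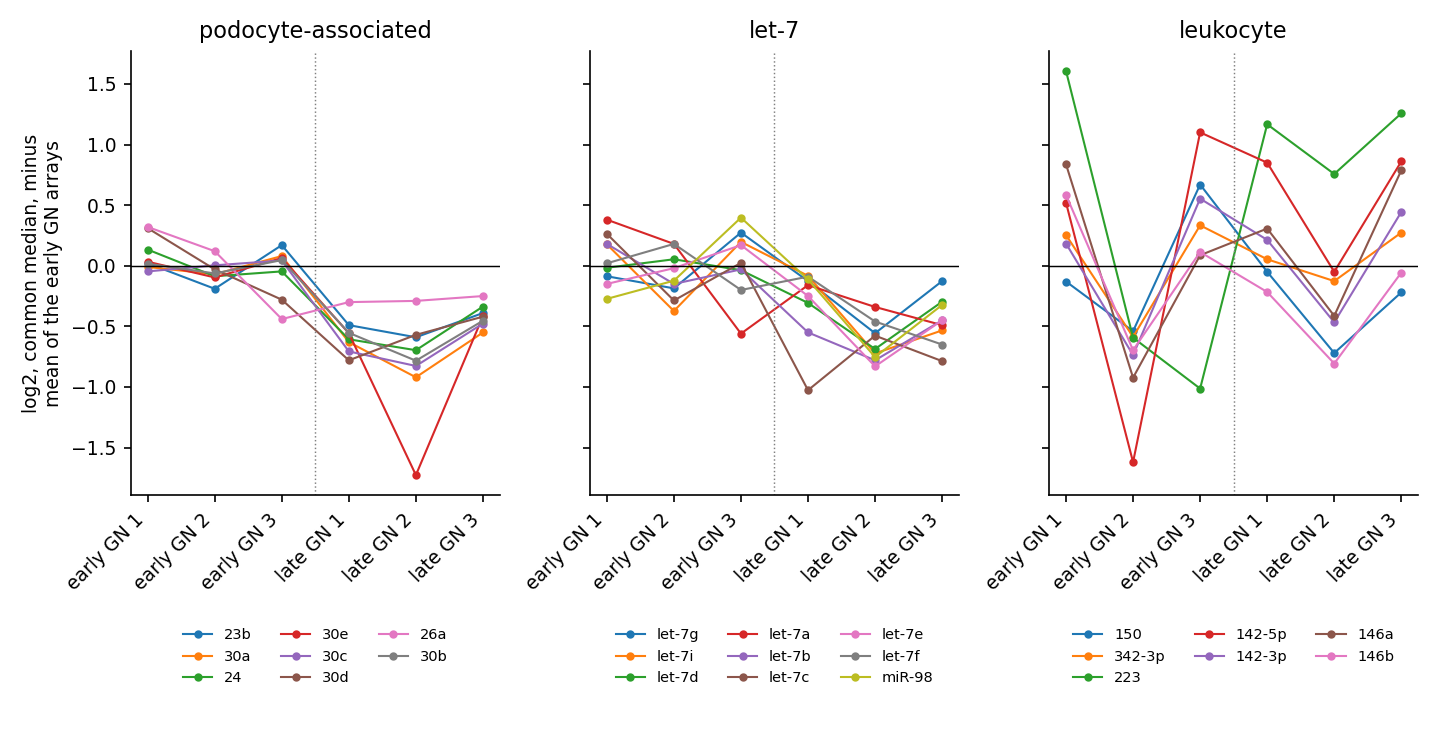
Log2 value on each array with the common median, minus the mean of the 3 early GN arrays, for members of the podocyte-associated, let-7 and leukocyte lists (1 line per miRNA). All podocyte-associated and let-7 members have negative means in late GN (medians -0.59 and -0.43), whereas all 7 leukocyte miRNAs overlap between the stages.

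The let-7 family, whose members are abundant in differentiated tissues, also lay lower with the common median, with counts near those of the brightest probes. All 9 members were below 0 with the common median (median -0.43), 4 of 9 had all late GN arrays below all early GN arrays (17.9% of all probes, and 31 of 81 in the brightest group) and 3 had an unadjusted p under 0.05 (12.9% of all probes, and 23 of 81 in the brightest group). With the deposited scaling 8 of 9 were above 0 (median 0.27), and the median was above 0 in 3 and below 0 in 6 of the 9 scalings. It was below that of all probes in all 9, a place that most of these scalings leave nearly unchanged. The gap was -0.12 with normexp and quantile normalization and -0.17 with cyclic loess. let-7c gave log2 values from the array median of 7.29, 6.74 and 7.05 in early GN against 6.00, 6.45 and 6.24 in late GN, a difference of -0.80 (SE 0.22, adjusted p = 0.186), and it was below 0 in all 9 scalings. let-7b (-0.60) and let-7e (-0.51) also had no overlap with the common median, and let-7g (-0.27) and let-7a (-0.33) overlapped.

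Other families had smaller median differences with the common median. The miR-15/16 family, known to slow cell division, had 6 of 6 tested members below 0 with the common median (median -0.31) and 5 of 6 above 0 with the deposited scaling (median 0.40). The miR-29 family, which targets collagen transcripts, had 3 of 3 members below 0 (median -0.34) with the common median and 3 of 3 above 0 with the deposited scaling (median 0.36). For miR-17-92 and its paralogs, which promote proliferation, 3 of 12 tested members were above 0 and 9 below with the common median (median -0.13), and 12 of 12 above 0 with the deposited scaling (median 0.58). The median signal of the miR-15/16 and miR-29 lists (log2 9.84 and 11.76) fell in the brightest of the 5 groups of probes. In that group 63 of 81 were below 0 with the common median (median -0.28). With cyclic loess the medians of the miR-15/16, miR-29 and miR-17-92 lists were -0.02, -0.04 and -0.04. None of the members of these lists passed the adjusted threshold in either scaling.

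The miRNAs of the other glomerular cell types went both ways. The median difference with the common median was -0.09 for the 4 endothelial miRNAs and 0.12 for the 5 mesangial and smooth muscle probes tested, with 2 of 4 and 3 of 5 above 0. miR-126-3p, which maintains endothelium, had values of 9648, 10856 and 20085 in early GN against 19500, 14596 and 17762 in late GN. Its difference was 0.42 with the deposited scaling and -0.28 with the common median, with overlap in both. miR-126-5p was at -0.36 and miR-222 at 0.38 in the common median scaling, both with overlap. miR-145 was at -0.41, with all late GN arrays below all early GN arrays, and miR-143 at -0.19 with overlap. None of these passed the adjusted threshold.

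Tubular markers were present in these preparations. Of the proximal tubule list, miR-192, miR-194 and miR-204 were listed on all 6 arrays and miR-215 on 1 early and 1 late GN array. miR-192, which is enriched in proximal tubule, had values of 147, 308 and 418 in early GN against 512, 628 and 546 in late GN (log2 difference 1.07 with the deposited scaling, 0.37 with the common median, no overlap in the first scaling and overlap in the second). miR-204 went the other way with the common median, at -0.65 with no overlap (adjusted p = 0.186). The 3 tubular miRNAs summed to 0.193% to 0.264% of the summed values in early GN but 0.287% to 0.325% in late GN, so that the tubular share was higher, and the podocyte-associated share lower, on all late GN arrays than on all early GN arrays. The part of tubular RNA in the other results was not tested. The miR-200 family of other kidney epithelium summed to 0.233% to 0.282% in early GN, with 0.218% to 0.310% in late GN, with a median difference of -0.05. Of 13 names restricted to other organs only miR-133a and miR-133b were listed on all 6 arrays (differences -0.46 and -0.11 with the common median), while miR-124, miR-206, miR-208b and miR-217 were listed on none.

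miR-21, known for its rise in renal injury and fibrosis, had values of 772, 575 and 2017 in early GN against 2719, 1622 and 2598 in late GN. From the array median the log2 values were 4.8, 4.04 and 4.8 in early GN against 5.31, 4.56 and 5.32 in late GN. Late GN array 2 was below early GN arrays 1 and 3, so the groups overlapped, and the difference was 1.23 with the deposited scaling and 0.52 (SE 0.28, adjusted p = 0.303) with the common median. It was above 0 in all 9 scalings, from 0.39 to 1.23. The other tested members of the injury list, miR-34a and miR-132, were at 0.15 and 0.36 with the common median. Of the red blood cell miRNAs, miR-451 was at -0.09 and the probe shared by miR-486 and miR-3107 at 0.45.

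**Figure D5:**
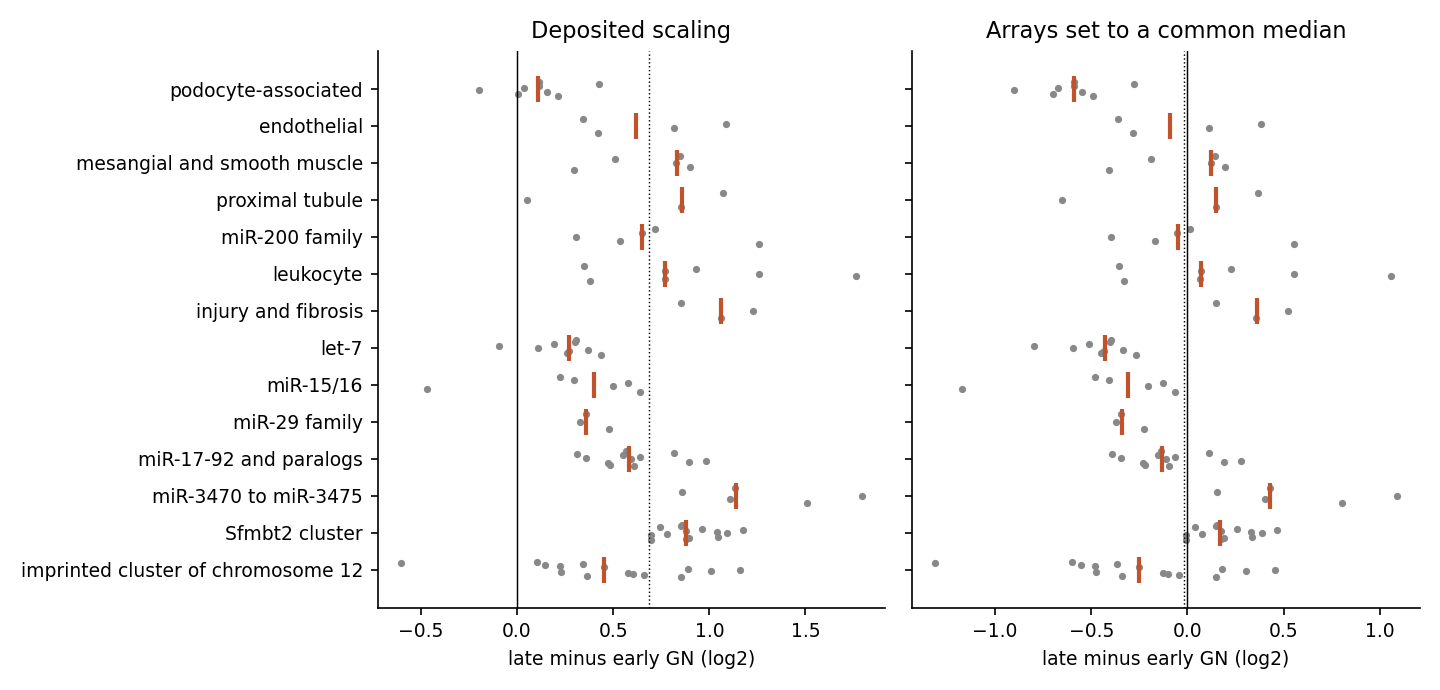
Difference of late minus early GN (log2) of every tested member (points) of 14 lists, with the list's median (orange bar), the median over all 403 probes (dotted line) and 0 (solid line), for the deposited scaling (left) and the common median (right). The podocyte-associated median is 0.11 on the left and -0.59 on the right, and that of miR-3470 to miR-3475 is 1.14 and 0.43.

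The miRNAs miR-3470 to miR-3475 were the list with the largest positive median. All 5 tested members were above 0 in both scalings, with medians of 1.14 and 0.43, where 391 and 198 of the 403 probes were above 0. All late GN arrays lay above all early GN arrays for 4 of 5 with the deposited scaling (20.8% of all probes) and for 1 of 5 with the common median (7.44%). The median signal of the list (log2 4.89) fell in the group of probes next to the dimmest, whose median difference was 0.18 with the common median. miR-3472 had values of 8.25, 21.4 and 11.4 in early GN against 53.8, 41.5 and 37.5 in late GN. Its log2 difference was the largest of all miRNAs with the deposited scaling, at 1.79, and 1.09 (SE 0.37, adjusted p = 0.186) with the common median, where early GN array 2 (-0.71) lay among the late GN arrays (-0.35, -0.72 and -0.79). The early GN values are near background, since its probe exceeded the blank mean by over 2 SD on 1 of 3 early and 3 of 3 late GN arrays. miR-3470a and miR-3474 did so on 2 of 3 early and 3 of 3 late GN arrays. The median of this list was above that of all probes in all 9 scalings, by 0.19 to 0.65, a place that most of these scalings leave nearly unchanged. The gap was 0.19 with normexp and quantile normalization and 0.45 with cyclic loess. The Sfmbt2 cluster is a large imprinted miRNA cluster of chromosome 2 named after its host gene. Its list, matched by the number in the name, had 14 tested probes with medians of 0.88 and 0.17. All 14 were above 0 with the deposited scaling, and 12 of 14 with the common median. By position, 6 tested probes were placed from Mir466m to Mir669h on chromosome 2, with medians of 0.92 and 0.22.

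The 10 miRNAs that were most read in glomeruli of healthy mice, as named by the study's sequencing, had a median difference of 0.33 with the deposited scaling and -0.38 with the common median. With the latter, 9 of 10 were below 0 and 4 of 10 lay below early GN with no overlap (17.9% of all probes, and 31 of 81 in the brightest group): let-7c, miR-27b (-0.52), miR-10b (-0.46) and miR-10a (-0.40). miR-192 was the member above 0. miR-126-5p (-0.36), let-7f (-0.40), miR-26a (-0.28), miR-191 (-0.28) and miR-22 (-0.06) overlapped between the stages.

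Some probes were listed at 1 stage only. Values were listed on all 3 late GN arrays and on no early GN array for 11 of the 1096 mouse probes, among them miR-18b*, miR-3074-5p and miR-466d-3p, and on all 3 early GN arrays and no late GN array for 0. These 11 probes were close to the blank spots, since their signal above the blank mean was -4.3 to 5.7 on the early GN arrays and -2.8 to 12.6 on the late GN arrays. Counting a probe as detected where its scanner signal exceeded the blank mean by over 2 SD gave the same counts of 11 and 0, but largely for other probes. Of the 11 listed ones, only miR-3074-5p (9.5, 7.6 and 9.2 above the blank mean on late GN arrays 1 to 3) met this rule. miR-219-3p, for example, was at 2.5, 7.6 and 0.2. Every probe listed on all 3 early GN arrays was listed on all 3 late GN arrays, while 587 probes were listed on all 3 late GN arrays and 403 on all 3 early GN arrays, and the lists of early GN arrays 1 and 2 were the shortest.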

How the data were processed

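The authors read the arrays with a 3D-Gene scanner, and the table they deposited holds linear intensity after global normalization. The deposited series table repeats these values. Set against the scanner files, a listed value is about the spot median minus the mean of the blank spots, times a factor of 1.10 to 2.35 for each GN array. Dim probes scatter by a few units around this, and how undetected probes were chosen is not given in the sources used here. The number of arrays limits the precision. The labels and the paper name different labelling kits.

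Each column was matched to its sample by name, and 0 value columns were left unmatched. Log2 values of the 403 mouse probes listed on all 6 GN arrays were fitted with limma 3.58.1 in R 4.3.3 (2-sided, Benjamini-Hochberg, threshold 0.05), as deposited and with arrays set to a common median. The fit was tested on simulated data. Of the probes tested, 399 carry 1 name and 4 several. For sequences, array names were assigned to RefSeq arms by hand. Only 103 of the 403 names (25.6%) equal a RefSeq mature name, so a check of base composition is void. Tables and plots used matplotlib 3.10.9, numpy 2.4.6 and pandas 2.3.3 in Python 3.11.15.

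Named were, in each scaling and direction, the miRNAs past the threshold or, where fewer than 5 passed, the 5 with the smallest p, up to 4 members of each list, and the 10 miRNAs most read in the study. Other named miRNAs were chosen after their values were seen. Members and lists were chosen with earlier results of these data known. Lists were matched by name and described by counts and medians. Alternatives were other scalings of the scanner signal (normexp with an offset of 50 and quantile normalization, the 75th percentile of detected or all mouse probes, spike controls, none), cyclic loess, the median of the brighter probes, a pseudocount of 16, other sets of probes, replicate or slide as a block (statmod 1.5.0), array weights, trend and robust moderation, all 9 arrays, each array left out, and the methods' t-test. Scanner gain as a covariate was added after the data were seen. In the scalings from the scanner signal other than normexp, 29 of 2418 values below the blank mean plus the blank SD were set to that level. The human samples and other assays of the paper were not used here.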

Additional observations from a re-analysis of the deposited data

Results flagged for a closer look

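The chip also carried 39 probes for miRNAs of murine cytomegalovirus and a murine gammaherpesvirus, which no comparison above used. With the deposited scaling, mcmv-miR-m01-2 was the 1 probe of the 39 that stood above all controls at both stages, and it was picked for this. Of the 39, 10 were listed on all 9 arrays. Its values were 15.2, 12.3 and 15.7 on the C57BL/6 arrays, 20.8, 33.3 and 35.4 in early GN against 40.1, 52.2 and 34.6 in late GN, with a mean of 42.3 in late GN. All late GN arrays, but not all early ones, also lay above the controls for other virus probes, among them mcmv-miR-M23-2 and mcmv-miR-M87-1. With the common median, the late minus early difference of mcmv-miR-m01-2 was -0.19 (log2), and the controls were not compared in that scaling. Of the virus probes, 10 were listed on all 6 GN arrays, and their median log2 difference was 0.78 with the deposited scaling and 0.07 with the common median, against 0.69 and -0.02 for the mouse probes. The source of the signal was not tested.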

How the results depend on the processing

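With the deposited scaling, the counts of 0 higher and 0 lower became 1 and 1 with a pseudocount of 16, 6 and 1 with all 9 arrays in the fit, 229 and 0 with array weights, 36 and 0 for scanner signal without scaling, and 3 and 0 with scaling to the spike controls. With an array left out they ran from 0 to 342 higher and from 0 to 1 lower. The 342 came without early GN array 3, whose deposited values match the scale of the late GN arrays. Both counts stayed at 0 in the remaining alternatives. The log2 difference of miR-101a ran from -2.95 without early GN array 1 to 1.09 without early GN array 3, where the median over all probes was 1.08. The latter was -0.02 with the common median. With the common median, the counts of 0 higher and 1 lower became 17 and 52 with slide as a random block. There the estimated correlation within a slide was negative (-0.548), and the median SE was 0.16, against 0.227 in the main fit. No slide held both stages, so this fit has no comparison of stages within a slide. Its calls include 7 of 8 podocyte-associated and 4 of 9 let-7 miRNAs. The counts were 0 and 3 with trend and robust moderation (miR-376a, miR-3968 and let-7c), 1 and 2 with array weights, 0 and 2 with all 9 arrays, 1 and 3 with scanner gain as a covariate, 1 and 1 with the median of the brighter probes, and 0 and 0 with the brighter probes alone, a pseudocount of 16 or the methods' t-test. At an unadjusted p under 0.05, the methods' t-test gave 21 higher and 0 lower with the deposited scaling and 12 and 46 with the common median. With an array left out, higher calls ran from 0 to 6 and lower calls from 0 to 5, the highest again without early GN array 3. miR-376a was not called without early GN array 2, late GN array 2 or late GN array 3, nor in the 5 scalings made from the scanner signal (adjusted p = 0.0911 to 0.433). Except where a sentence gives it, the cause was not tested.

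Same-numbered arrays of the stages deviated together with r of -0.09, 0.35 and 0.19, so the replicate numbers were not taken as a pairing. With the replicate block, the counts were 0 higher and 0 lower with the deposited scaling and 0 higher and 1 lower (miR-376a, adjusted p = 0.0456) with the common median. Signal over background limits the dim probes: of the 403 tested, 316 exceeded the blank mean by over 2 SD on all 6 arrays.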

Other observations

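In RefSeq, 366 of the 403 probes matched a hairpin, and 8 groups of genes within 10 kb of each other held at least 4 tested probes. Their medians with the common median ran from -0.56 to 0.43. In the group from Mir450b to Mir322 on chromosome X, which encodes miR-322, miR-503, miR-351 and miR-542, 7 of 8 probes were below 0 with the common median (median -0.56, and 0.14 with the deposited scaling), and 4 of 8 had all late GN arrays below all early GN arrays, against 17.9% of all probes. miR-351 gave log2 values from the array median of 1.93, 1.63 and 1.62 in early GN against 0.97, 1.16 and 1.18 in late GN, and miR-322* gave 3.29, 3.08 and 3.11 against 2.29, 2.31 and 2.80. miR-503 itself overlapped (-0.12) while miR-503* was at -0.96. In the group from Mir99b to Mir125a on chromosome 17, 4 of 4 probes lay lower on all late GN arrays with the common median, against 17.9% of all probes. Their median difference was -0.49, and 0.21 with the deposited scaling. The median signal of the group (log2 8.46) fell in the second brightest of the 5 groups of probes, where 18 of 80 did so. let-7e is 1 of the 4 and was also counted with let-7. The 5 probes from Mir770 to Mir136 on chromosome 12 had a median of 0.43, with differences from -0.56 to 0.62. These groups were singled out after their values were seen.

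For 64 hairpins both arms were tested. With the common median, both arms were above 0 for 20, both below for 28 and opposite for 16 (r = 0.45 and rho = 0.48 across hairpins, a description). The widest gap was that of miR-1224, whose main arm was at -0.27 and whose star strand was at 1.01. By the order of annotation, the 28 miRNAs from miR-1892 to miR-1971 had a median difference of 0.29 with the common median, and 24 of 28 were above 0. The 38 from miR-3057 to miR-3113 had a median of 0.18, the 14 from miR-680 to miR-721 one of 0.13 and the 23 from miR-5097 to miR-5136 one of 0.02, against -0.12 for the 300 other names. Star strands had a median of 0.07. The median signal (log2) was 5.65, 5.03, 6.80 and 7.17 for these 4 classes in the order given, 5.77 for the other names and 5.26 for star strands, and the part of brightness in the differences was not tested.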
